A study of Mus musculus with 12 samples.

Results

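The NFAT and calcineurin genes are the rows of the deposited gene count tables whose symbol is Nfatc1, Nfatc2, Nfatc3, Ppp3ca, Ppp3cb, Ppp3cc, Rcan1 or Rcan3. All 8 had a row among the 24046 gene symbols counted, and all 8 were among the 12242 genes with enough reads to test. They were measured by poly(A) RNA-seq in splenic follicular (FO) B cells, the recirculating naive B cells of the spleen. The cells came from mice labelled Jmjd1c KO or Jmjd1c WT, and each library was labelled with anti-IgM at 0 h or at 2 h. Anti-IgM antibody binds and cross-links the surface IgM of the receptor, and Jmjd1c encodes a Jumonji-domain protein of the histone H3K9 demethylase family. The 4 groups (WT 0 h, WT 2 h, KO 0 h and KO 2 h) had 3 libraries each. An identifier shared by library names ties each 0 h library to a 2 h library, and it was read as the animal, which gives 3 animals per genotype. The labels number the libraries of each group 1 to 3 and call this number a batch. The sources used here do not give the strain, age or sex, the deleted part of Jmjd1c, or the cells in which it is deleted. No library was made after 2 h without anti-IgM, so the time in culture and receptor cross-linking cannot be told apart.

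Calcineurin is a phosphatase that is switched on by calcium. It consists of a catalytic subunit, encoded by Ppp3ca, Ppp3cb or Ppp3cc, and a calcium-binding regulatory subunit, encoded in lymphocytes by Ppp3r1. When the B cell receptor raises cytoplasmic calcium, calcineurin removes phosphates from the transcription factors NFATc1, NFATc2 and NFATc3, which then enter the nucleus. Rcan1 and Rcan3 encode regulators of calcineurin that bind the enzyme and can inhibit it. NFAT proteins bind DNA at a short core, GGAAA, often beside a site for AP-1, and they are known to raise transcription of Nfatc1 itself and of the short form of Rcan1. Cyclosporin and tacrolimus suppress lymphocytes by blocking calcineurin.

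After 2 h of anti-IgM the 8 genes did not move together. Nfatc1 rose 2.51-fold in WT cells, while Nfatc2, the catalytic subunit gene Ppp3ca and the inhibitor gene Rcan3 fell, with log2 fold changes of -0.98, -0.87 and -0.90. Ppp3cb and Rcan1 passed no test in either genotype. In KO cells the same 4 genes passed the test in the same direction, and Nfatc3 and Ppp3cc also passed, both lower. In WT cells Nfatc3 and Ppp3cc were lower too, at -0.48 and -0.55, but did not pass. The KO calls of Nfatc1, Ppp3cc and Rcan3 ended on leaving out any of 10, 10 and 8 of the 12 libraries. None of the 8 genes passed the test between KO and WT at 0 h or at 2 h, nor did any response in the test of its difference between the genotypes.

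**Figure D1:**
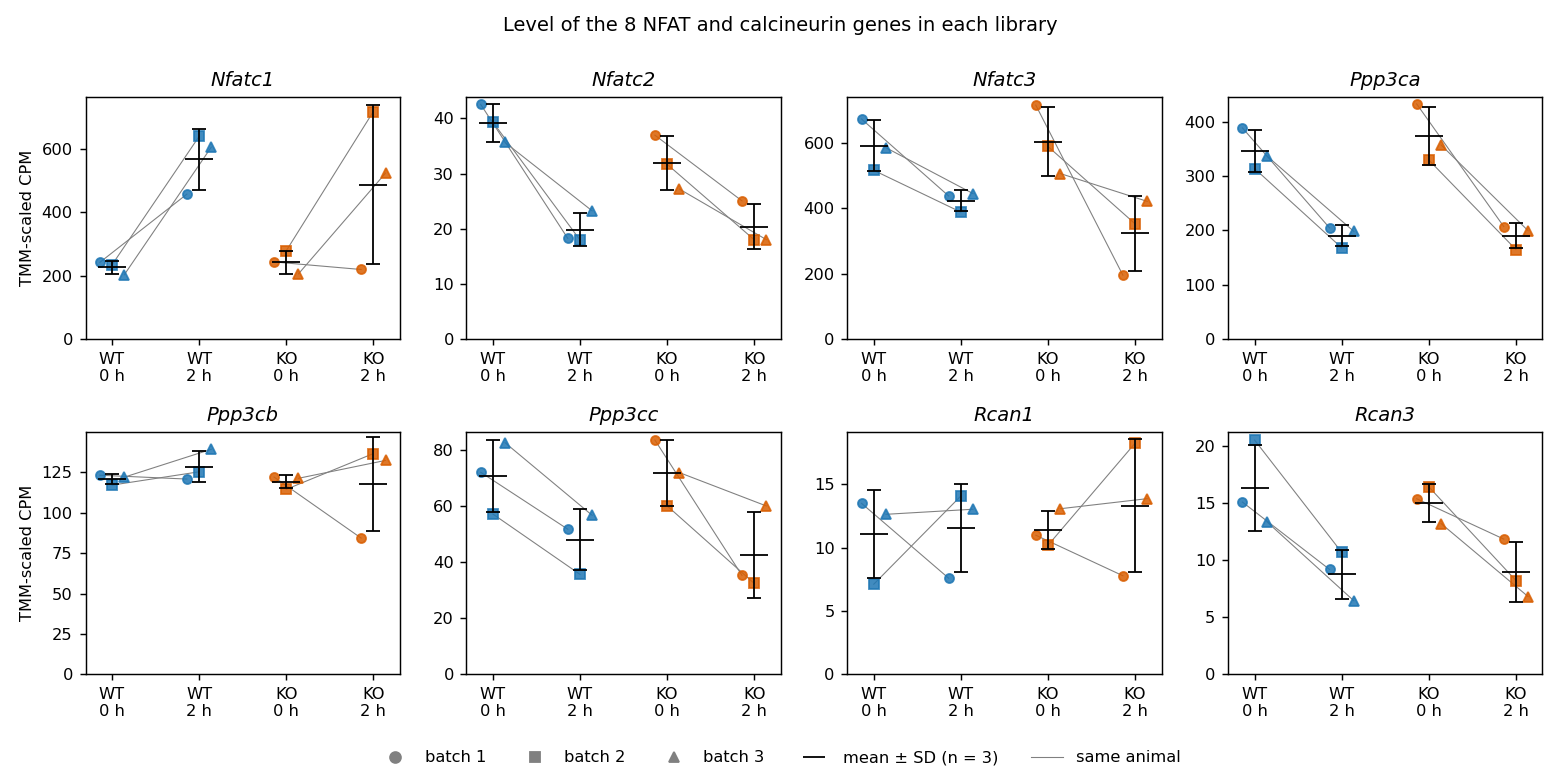
Level of each of the 8 genes in each library, as CPM after TMM scaling, with each gene on its own axis from 0. Circles, squares and triangles are batches 1, 2 and 3, black bars are the mean ± SD of 3 libraries, and grey lines join libraries of the same animal. Nfatc1 goes up in 5 of 6 animals, and Nfatc2, Nfatc3, Ppp3ca, Ppp3cc and Rcan3 go down in 6 of 6.

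The libraries held 5666013 to 14153396 counts, so that 3 counts correspond to 0.183 to 1.02 CPM. CPM, the unit of all levels here, is the library-size-normalised read count of a gene after TMM scaling. Replicate 1 of KO 2 h stood apart. The ribosomal RNA row Rn45s took 52.3% of its counts, against 24.8% in WT 2 h replicate 1, between 12.9% and 15.5% in the batch 2 libraries and at most 1.09% in the others. Its scaling factor was 0.522, against 0.879 to 1.20 in the other libraries, and its summed follicular markers were at 494 CPM against 998 to 1373 CPM in the other 11 libraries. Its 4 marginal zone B cell markers summed to 224 CPM, against 332 to 510 CPM in the other 2 h libraries. Its 6 B cell markers, at 2367 CPM, were not the lowest at 2 h. In the same library 2 markers of dividing cells summed to 744 CPM, against 21.0 to 198 CPM in the others, 3 platelet markers to 68.4 CPM, against at most 25.0, and 6 myeloid markers to 91.1 CPM, against at most 59.8. Most of the platelet sum was Itga2b, with a KO 2 h mean of 27.7 CPM against 0.380 for Pf4 and 0.574 for Ppbp. The part of these library differences in the results was not tested. KO responses of the 8 genes and the list counts are given below with and without this library, as are the genotype differences of the genes it moved most. Jmjd1c was at 270 to 360 CPM in the WT libraries and 197 to 236 CPM in the KO libraries, lower in all KO libraries but not past the adjusted threshold. Since the deleted part is not known, this checks the labels only in part. The 6 B cell markers were present in all groups, and their sum was 3948 to 5143 CPM at 0 h and 2229 to 3743 CPM at 2 h. T cells also use NFAT and calcineurin, and 10 T cell markers summed to 181 to 245 CPM at 0 h and 170 to 252 CPM at 2 h. Most of that sum was Lck and Cd2, and the other 8, among them Cd3e, Cd3d and Cd3g, had group means between 2.61 and 8.53 CPM. None of the 10 was at 0 over a group. The part of other cells in the results was not tested, and in bulk RNA fewer cells of a type and less RNA per cell cannot be told apart. The animals are told apart by library names alone, so p-values measure only the spread between these libraries, part of which may be technical.

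Among the catalytic subunit genes, Ppp3ca was the one whose fall passed the test in both genotypes. Ppp3ca lies on chromosome 3 from 136670124 to 136937727 on the plus strand (GRCm38, GENCODE M21). In WT cells it was at 388, 313 and 337 CPM at 0 h and at 204, 168 and 198 CPM at 2 h. In KO cells it was at 432, 329 and 357 CPM at 0 h and at 207, 165 and 199 CPM at 2 h. All 6 libraries at 2 h lay below all 6 at 0 h, KO 2 h replicate 1 included. The fall was 1.82-fold in WT (log2 fold change -0.87 ± 0.15 SE, adjusted p = 0.00253 by edgeR's quasi-likelihood test) and 1.96-fold in KO (-0.97 ± 0.15, adjusted p = 9.77e-04). The KO value was -1.04 without KO 2 h replicate 1 (adjusted p = 6.93e-04). Within animals the log2 change lay between -0.92 and -0.77 in WT and between -1.06 and -0.84 in KO.

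Ppp3cb, on chromosome 14 from 20499364 to 20546573 on the minus strand, encodes the beta catalytic subunit. Its levels were 123, 117 and 122 CPM in WT 0 h and 121, 125 and 139 CPM in WT 2 h. In KO they were 122, 114 and 121 CPM at 0 h and 84.3, 137 and 132 CPM at 2 h, the low value being the library with the high ribosomal share. The groups overlapped in both genotypes. The log2 change was 0.09 in WT, with a 95% interval of -0.25 to 0.43 (adjusted p = 0.744), and -0.01 in KO, with an interval of -0.35 to 0.33 (adjusted p = 0.971). These intervals do not reach the fall seen for Ppp3ca in either genotype. Its KO value was 0.17 without KO 2 h replicate 1 (adjusted p = 0.186).

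Ppp3cc encodes the gamma catalytic subunit and lies on the same chromosome from 70217865 to 70289471, also on the minus strand. It was at 71.9, 57.1 and 82.5 CPM in WT 0 h and at 51.7, 35.6 and 56.6 CPM in WT 2 h. The KO values were 83.4, 60.0 and 71.8 CPM at 0 h and 35.2, 32.4 and 59.9 CPM at 2 h. In each genotype the 2 h libraries lay just below the 0 h libraries, by less than 1 CPM between the nearest libraries. The log2 change of -0.55 ± 0.25 in WT did not pass (adjusted p = 0.149), and that of -0.74 ± 0.25 in KO did (adjusted p = 0.0484). The KO call ended without KO 2 h replicate 1 (-0.62, adjusted p = 0.106) and on leaving out any of 9 other libraries (adjusted p of the 10 between 0.0531 and 0.158). The WT fall passed with the batch number as a block (adjusted p = 0.0225) but not when blocked by animal (-0.56, adjusted p = 0.0604). A transcript annotated antisense to Ppp3cc, Gm49417, shares 91 exon bases with it, and the sources used here give no strand setting for the counting.

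The balance of Ppp3cb and Ppp3ca transcripts shifted accordingly. The ratio of Ppp3cb to Ppp3ca counts, which does not depend on the scaling between libraries, was 0.317, 0.373 and 0.362 in WT 0 h and 0.591, 0.747 and 0.704 in WT 2 h. In KO it was 0.282, 0.348 and 0.340 at 0 h and 0.408, 0.830 and 0.665 at 2 h. Every 2 h library, in either genotype, had a higher ratio than every 0 h library. Per kilobase of exon, Ppp3cb made up 18.2% to 20.8% of the summed level of the 3 genes in WT 0 h and 26.6% to 33.1% in WT 2 h. In KO its share was 16.3% to 19.7% at 0 h and 22.7% to 36.2% at 2 h. The Ppp3ca share in KO 2 h replicate 1 was 49.2%, within the 48.6% to 50.9% of KO 0 h. The summed level of the 3 genes was 72.0 ± 7.15 CPM per kilobase (SD, n = 3) in WT 0 h and 49.7 ± 6.03 in WT 2 h, with 74.9 ± 9.60 and 46.7 ± 7.27 in KO. These ratios, shares and sums were not tested. Ppp3r1, the shared regulatory subunit, was at 103 CPM in WT at both times (log2 change -0.01, adjusted p = 0.968) and went from 106 to 96.7 CPM in KO (-0.13, adjusted p = 0.496).

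The calcineurin regulators Rcan1 and Rcan3 were the least abundant members together with Nfatc2. Rcan1 lies on chromosome 16 from 92391953 to 92470867 on the minus strand, and RefSeq gives it a distal start and an internal start 66091 bases downstream. The gene count sums transcripts of both. The 250 bases before each start are shown because the internal one is the start known to answer to NFAT. They were taken from RefSeq (GRCm38.p6, minus strand, 5′ to 3′), with each match to the NFAT core GGAAA, or to TTTCC where it lies on the other strand, in capitals. The distal window, chr16:92466170-92466419, held 0 matches, and the internal window, chr16:92400079-92400328, held 3.
Rcan1 distal start: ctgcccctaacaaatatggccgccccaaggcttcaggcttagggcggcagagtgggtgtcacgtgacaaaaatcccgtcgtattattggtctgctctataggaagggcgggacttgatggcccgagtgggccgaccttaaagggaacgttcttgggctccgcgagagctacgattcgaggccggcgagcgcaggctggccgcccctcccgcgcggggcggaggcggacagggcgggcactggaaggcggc
Rcan1 internal start: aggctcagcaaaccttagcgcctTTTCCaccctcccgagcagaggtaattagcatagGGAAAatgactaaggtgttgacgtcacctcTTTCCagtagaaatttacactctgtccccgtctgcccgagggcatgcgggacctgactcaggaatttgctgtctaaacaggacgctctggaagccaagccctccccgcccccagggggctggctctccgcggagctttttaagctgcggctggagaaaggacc
The internal window also held 1 match to the AP-1 motif TGANTCA, searched on both strands, and the distal window held 0. Of 32851 RefSeq windows of this length, 55.6% held at least 1 NFAT core and 6.39% held at least 3, and 6.75% held the AP-1 motif. A match is a run of letters and was not tested as a binding site.

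Rcan1 showed no common direction among the animals. Its levels were 13.5, 7.12 and 12.6 CPM in WT 0 h and 7.59, 14.1 and 13.0 CPM in WT 2 h. In KO they were 11.0, 10.2 and 13.1 CPM at 0 h and 7.79, 18.2 and 13.9 CPM at 2 h. The times overlapped in both genotypes. Within animals the log2 change was -0.82 in WT and -0.49 in KO in batch 1, 0.97 and 0.83 in batch 2, and 0.04 and 0.08 in batch 3, so that the sign went with the batch number in both genotypes. The fitted changes were 0.06 in WT (95% interval -0.67 to 0.78, adjusted p = 0.932) and 0.24 in KO (-0.48 to 0.97, adjusted p = 0.610), and both intervals leave room for a change in either direction. With KO 2 h replicate 1 left out, the KO value was 0.48 (adjusted p = 0.262). In KO 2 h replicate 1 the gene rested on 23 counts.

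Rcan3, on chromosome 4 from 135412308 to 135433853 on the minus strand, fell. It was at 15.1, 20.5 and 13.4 CPM in WT 0 h and at 9.19, 10.7 and 6.44 CPM in WT 2 h. The KO libraries had 15.4, 16.4 and 13.2 CPM at 0 h and 11.8, 8.22 and 6.81 CPM at 2 h. No 2 h library reached the lowest 0 h library. The log2 change was -0.90 ± 0.26 in WT (adjusted p = 0.0293) and -0.78 ± 0.26 in KO (adjusted p = 0.0451). The WT call ended without WT 0 h replicate 1 or 2 or WT 2 h replicate 1 or 3 (adjusted p up to 0.118), and the KO call ended on leaving out any of 8 of the 12 libraries (0.0513 to 0.119). Without KO 2 h replicate 1 the KO call held (adjusted p = 0.0104), and within animals Rcan3 was lower at 2 h in 6 of 6. The microRNA Mir700 shares 44 of its exon bases, on the same strand.

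Nfatc1 was the only member that rose. It lies on chromosome 18 from 80606205 to 80713071 on the minus strand, and its short inducible isoform is known to accumulate in stimulated lymphocytes. Gene counts do not separate that isoform from the others. Its levels were 242, 234 and 202 CPM in WT 0 h and 457, 639 and 605 CPM in WT 2 h. In KO they were 243, 278 and 205 CPM at 0 h and 219, 718 and 523 CPM at 2 h. The WT times were well apart, while in KO the replicate 1 library at 2 h sat among the 0 h libraries. The rise was 1.33 ± 0.33 on the log2 scale in WT (95% interval 0.61 to 2.05, adjusted p = 0.0147) and 1.01 ± 0.33 in KO (0.30 to 1.72, adjusted p = 0.0391).

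The KO rise of Nfatc1 moved with single libraries. Without KO 2 h replicate 1 it was 1.36 ± 0.18 (adjusted p = 3.70e-04), close to the WT value of 1.33 in the same fit. With that library kept, leaving out any of 10 of the other 11 libraries ended the KO call (adjusted p between 0.0537 and 0.165), and without KO 2 h replicate 2 the rise was 0.62 (adjusted p = 0.165). With the animal as a block it was 0.87 (adjusted p = 0.0738). Within animals the log2 change was 0.92, 1.45 and 1.58 in WT and -0.15, 1.37 and 1.35 in KO. The WT call ended without WT 0 h replicate 3 or WT 2 h replicate 2, with adjusted p of 0.0657 and 0.0630.

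Nfatc2 encodes an NFAT known to be present in resting lymphocytes, and it fell in both genotypes. It lies on chromosome 2 from 168476410 to 168601657 on the minus strand. In WT it was at 42.6, 39.3 and 35.6 CPM at 0 h and at 18.2, 18.0 and 23.2 CPM at 2 h. In KO it was at 37.0, 31.7 and 27.2 CPM at 0 h and at 25.0, 18.0 and 18.0 CPM at 2 h. All 6 libraries at 2 h were below all 6 at 0 h, the nearest being KO 2 h replicate 1 and KO 0 h replicate 3. The log2 change was -0.98 ± 0.17 in WT (adjusted p = 0.00239) and -0.68 ± 0.17 in KO (adjusted p = 0.0129). The KO value was -0.83 without KO 2 h replicate 1 (adjusted p = 0.00304). The KO call ended without KO 0 h replicate 1 (adjusted p = 0.0604).

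Nfatc3, on chromosome 8 from 106058840 to 106130537 on the plus strand, was the most abundant NFAT transcript at 0 h. It was at 672, 515 and 584 CPM in WT 0 h and at 437, 388 and 444 CPM in WT 2 h. In KO it was at 714, 588 and 506 CPM at 0 h and at 195, 352 and 420 CPM at 2 h. Each genotype's 2 h libraries lay below its 0 h libraries, with KO 2 h replicate 1 the lowest of all. The log2 change of -0.48 ± 0.24 in WT did not pass (95% interval -1.01 to 0.05, adjusted p = 0.195), and that of -0.90 ± 0.24 in KO did (adjusted p = 0.0175). Both passed without KO 2 h replicate 1, at -0.48 ± 0.14 in WT (adjusted p = 0.0279) and -0.64 ± 0.16 in KO (adjusted p = 0.0123). The KO call ended without KO 0 h replicate 1 (adjusted p = 0.0740). A gene on the opposite strand, Esrp2, shares 219 exon bases with Nfatc3.

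The order of the NFAT transcripts turned over. Per kilobase of exon, Nfatc3 led at 0 h in WT with 50.4 ± 6.70 CPM per kilobase (SD, n = 3) against 30.3 ± 2.79 for Nfatc1 and 3.70 ± 0.327 for Nfatc2. At 2 h Nfatc1 led with 76.0 ± 13.0 against 36.1 ± 2.63 for Nfatc3 and 1.87 ± 0.281 for Nfatc2. In KO the order of the means was the same at each time, though Nfatc1 and Nfatc3 overlapped at 2 h, with Nfatc1 going from 32.4 ± 4.88 to 65.2 ± 33.6 and Nfatc3 from 51.4 ± 8.97 to 27.5 ± 9.86. The ratio of Nfatc1 to Nfatc3 counts, which needs no scaling, was 0.360, 0.454 and 0.346 in WT 0 h and 1.05, 1.65 and 1.36 in WT 2 h. In KO it was 0.340, 0.473 and 0.406 at 0 h and 1.13, 2.04 and 1.25 at 2 h. All 6 libraries at 2 h had more Nfatc1 than Nfatc3 counts and all 6 at 0 h had fewer, KO 2 h replicate 1 included. Across the 3 genes, Nfatc1 held 33.7% to 39.7% of the summed level in WT 0 h, 61.1% to 71.1% in WT 2 h, 33.6% to 41.2% in KO 0 h and 60.7% to 75.2% in KO 2 h. The sum itself was 84.3 ± 8.14 CPM per kilobase in WT 0 h and 114 ± 11.9 in WT 2 h, and in KO it was 86.9 ± 12.3 and 94.6 ± 41.3. The KO 2 h libraries had 48.4 in replicate 1 and 128 and 108 in replicates 2 and 3. These ratios, shares and sums were given no test.

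**Figure D2:**
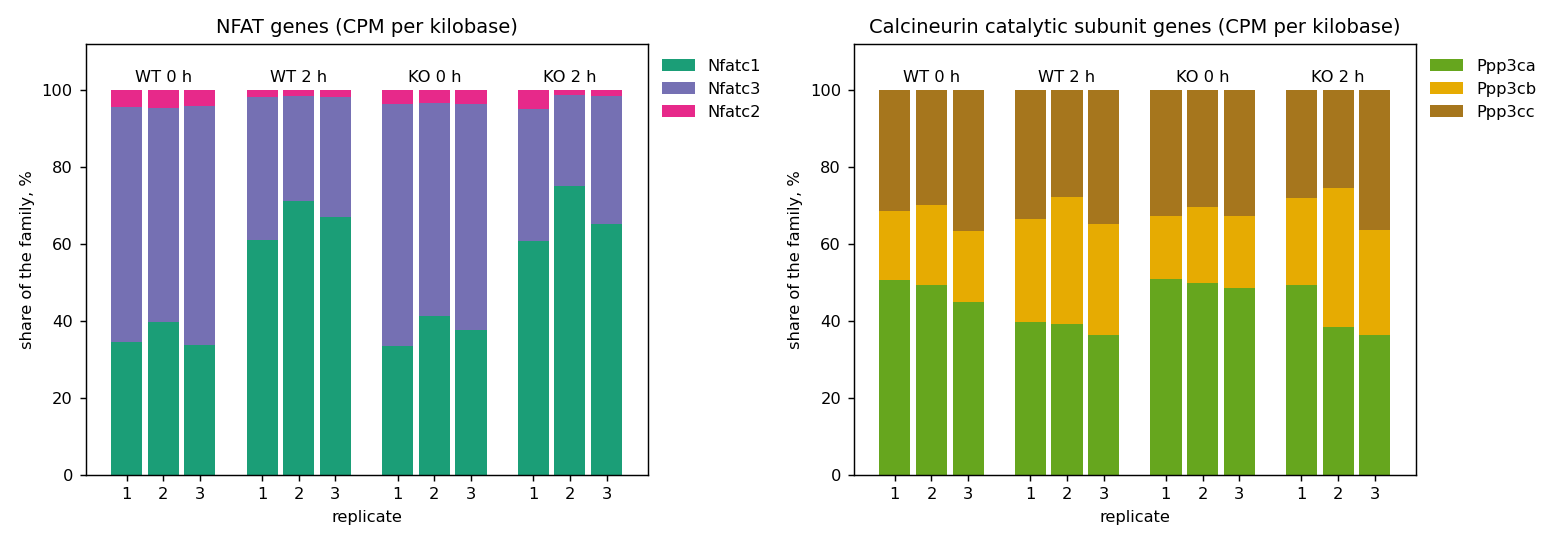
Share of each gene, in percent, in the summed level (CPM per kilobase of exon) of the 3 NFAT genes (left) and of the 3 calcineurin catalytic subunit genes (right), with 1 bar per library. Nfatc1 goes from 33.6% to 41.2% at 0 h to 60.7% to 75.2% at 2 h in all 12 libraries, and Ppp3cb from 16.3% to 20.8% to between 22.7% and 36.2%.

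Over all 8 genes at 0 h, the levels in WT ran from Nfatc3 through Ppp3ca at 34.7 ± 3.84, Nfatc1, Ppp3cc at 23.6 ± 4.27 and Ppp3cb at 13.7 ± 0.368 to Nfatc2, Rcan1 and Rcan3 between 3.19 and 3.70 CPM per kilobase. Ppp3ca overlapped Nfatc1, Nfatc1 overlapped Ppp3cc, and the last 3 overlapped one another, so their order within those pairs is not settled. In WT at 2 h Ppp3ca at 19.0 ± 1.96 overlapped Ppp3cc at 16.1 ± 3.68, and Ppp3cc overlapped Ppp3cb at 14.6 ± 1.09. Ppp3ca did not overlap Ppp3cb, with a lowest library of 16.8 against a highest of 15.8 CPM per kilobase. Rcan1 at 3.75 ± 1.13 then stood above Nfatc2 and Rcan3, which overlapped. These levels assume that reads fall over all annotated exon bases of a gene, which was not tested.

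Windows upstream of the starts were also searched in the other members. They were found for 5 of the 8 genes (Nfatc2, Nfatc3, Ppp3cb, Rcan1 and Rcan3), and none was found for Nfatc1, Ppp3ca and Ppp3cc. Those of Nfatc2 and Ppp3cb are shown because each held 3 NFAT cores, as many as the internal start of Rcan1. They are chr2:168601658-168601907 and chr14:20546574-20546823, both on the minus strand, with the core matches in capitals.
Nfatc2: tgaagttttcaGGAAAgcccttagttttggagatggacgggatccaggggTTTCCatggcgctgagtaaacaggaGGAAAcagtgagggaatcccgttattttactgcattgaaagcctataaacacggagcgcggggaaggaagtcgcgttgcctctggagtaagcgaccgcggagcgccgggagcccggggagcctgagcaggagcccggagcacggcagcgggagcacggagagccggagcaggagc
Ppp3cb: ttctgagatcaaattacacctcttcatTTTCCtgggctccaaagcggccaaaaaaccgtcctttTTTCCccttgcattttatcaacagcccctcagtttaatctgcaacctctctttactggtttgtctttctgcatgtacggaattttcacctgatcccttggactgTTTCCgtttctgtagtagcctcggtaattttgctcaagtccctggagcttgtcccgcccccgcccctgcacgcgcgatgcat
Nfatc2 fell in both genotypes, and Ppp3cb passed the test in neither. The second Nfatc2 window, the Rcan3 window and 1 of the Nfatc3 windows held 1 match each. None of these windows held the AP-1 motif.

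**Figure D3:**
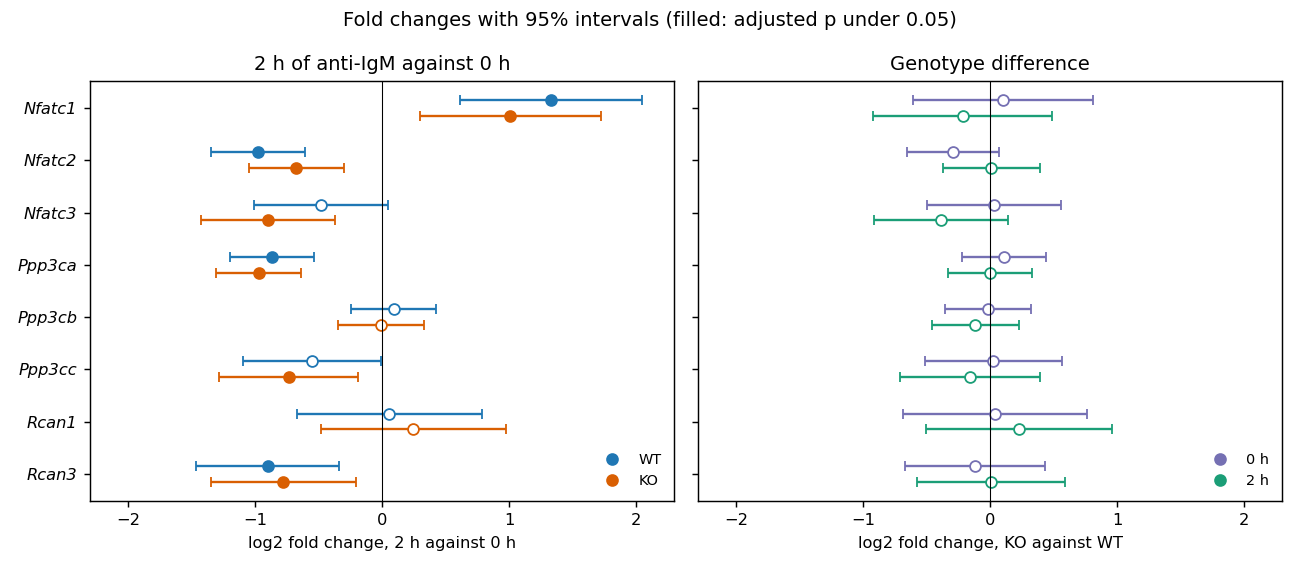
Log2 fold change of each of the 8 genes at 2 h against 0 h within each genotype (left) and in KO against WT at each time (right), with 95% intervals from edgeR. Filled points have an adjusted p under 0.05. Filled points appear for 4 genes in WT and 6 in KO on the left and for none on the right.

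Counted over the members, 4 of 8 passed in the WT response, 1 higher and 3 lower, where 19.8% of all genes tested passed, 10.7% higher and 9.06% lower. In the KO response 6 of 8 passed, 1 higher and 5 lower, where 27.1% of all genes passed, 14.1% higher and 13% lower. Groups did not overlap for 6 members in WT, 1 higher and 5 lower, against 43.9% of all genes (21.3% higher and 22.7% lower). In KO they did not overlap for 5 members, all lower, against 37.5% of all genes (17.9% higher and 19.6% lower). The median log2 change of the 8 was -0.52 in WT and -0.71 in KO, where the median of all genes was 0.01 and 0.04. Ppp3ca kept its call in both genotypes under all 23 alternative settings, and Nfatc2 kept its WT call under all 23. The KO count was the less stable one, with 1 member called (Ppp3ca) when KO 0 h replicate 1 was left out, and 3 when KO 0 h replicate 2 or 3, KO 2 h replicate 2 or WT 0 h replicate 1 or 3 was left out.

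No member passed the test between genotypes. At 0 h the adjusted p was 0.9999 for all 8 in edgeR's quasi-likelihood test, where 0% of the 12242 genes passed and 91 had an unadjusted p under 0.05. The log2 difference, KO against WT, ran from -0.29 for Nfatc2 to 0.11 for Ppp3ca. For Ppp3ca the 95% interval was -0.22 to 0.44, and for Nfatc1, at 0.10, it was -0.61 to 0.81. The interval of Ppp3ca excludes a genotype difference as large as its own response of -0.87, and that of Nfatc1 excludes one as large as its response of 1.33. Nfatc2 was lower in the KO library of all 3 batches at 0 h, by -0.20, -0.31 and -0.39, with overlapping groups, an interval of -0.65 to 0.07 and an unadjusted p of 0.101. DESeq2 called 0 members and 1 gene in all at 0 h.

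At 2 h 0% of genes passed between KO and WT, 640 had an unadjusted p under 0.05, and DESeq2 called 2 genes, none of them a member. Ppp3ca had nearly the same mean, 190 CPM in each genotype, with an interval of -0.33 to 0.33. The log2 difference was -0.22 for Nfatc1 (-0.92 to 0.49, adjusted p = 0.904) and -0.39 for Nfatc3 (-0.92 to 0.14, adjusted p = 0.887). Both moved with single KO 2 h libraries. Within batch 1 the KO library was lower by -1.06 for Nfatc1 and -1.16 for Nfatc3, within batches 2 and 3 the differences were 0.17 and -0.21 for Nfatc1 and -0.14 and -0.08 for Nfatc3, and without KO 2 h replicate 1 the pooled values were 0.13 and -0.13. The Nfatc1 difference was -0.61 without KO 2 h replicate 2 (adjusted p = 0.489). The other 5 lay between -0.16 and 0.23. No member had KO and WT libraries apart at either time, where 5.85% of all genes did at 0 h and 8.22% at 2 h.

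The test of the difference between responses gave adjusted p of 0.9999 for all 8, with 0% of genes past the threshold, 40 at an unadjusted p under 0.05 and 0 by DESeq2. Nfatc3 had a response lower by -0.42 in KO (95% interval -1.16 to 0.33), Nfatc1 by -0.32 (-1.32 to 0.68), and Nfatc2 fell less in KO by 0.30 (-0.22 to 0.82). Without KO 2 h replicate 1 these were -0.16, 0.03 and 0.15, and without KO 2 h replicate 2 the Nfatc1 value was -0.71 (adjusted p = 0.924). Nfatc3 and Ppp3cc passed in the KO response and not in the WT response, which is therefore not a difference between the genotypes that this test detected.

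**Figure D4:**
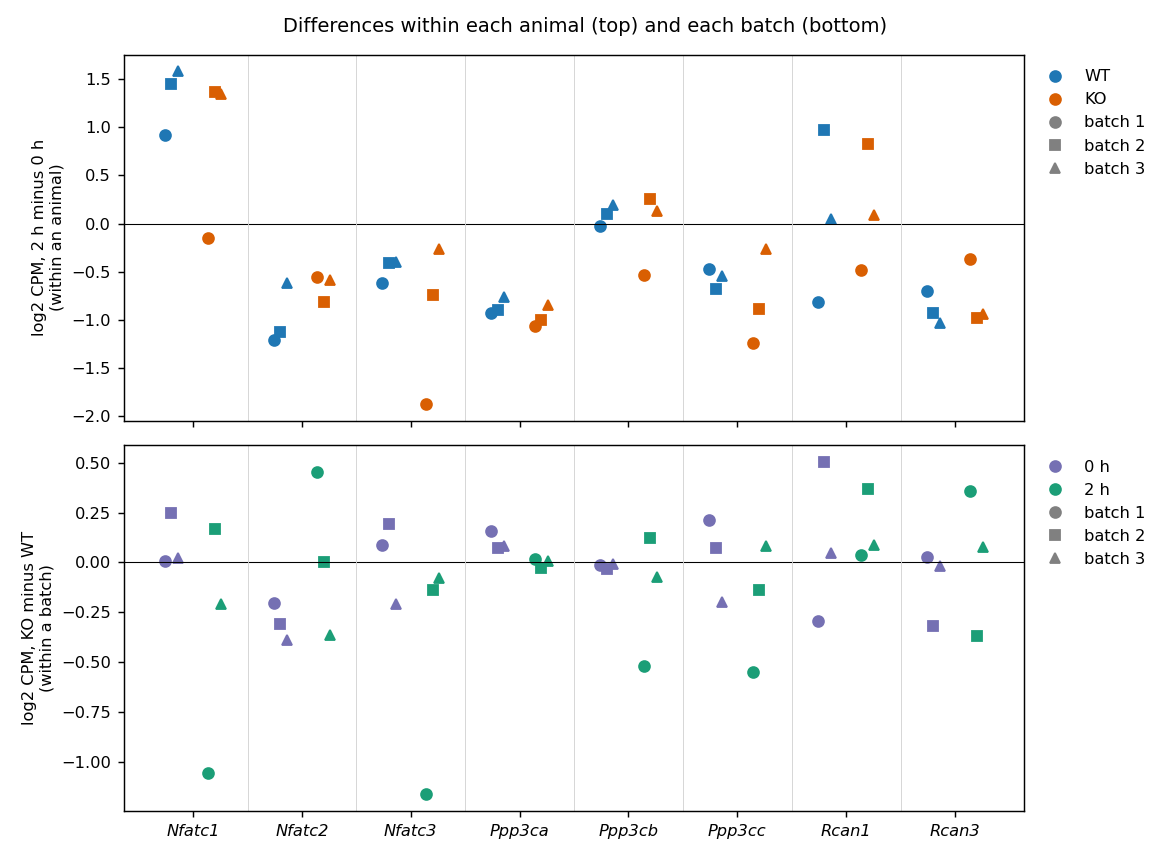
Log2 difference in CPM within each animal between 2 h and 0 h (top, WT blue, KO orange) and within each batch between KO and WT (bottom, 0 h purple, 2 h green), with 1 point per animal or batch. In batch 1 at 2 h Nfatc1 and Nfatc3 are lower in KO by -1.06 and -1.16, while for Ppp3ca all points of the bottom panel lie between -0.03 and 0.16.

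The genes whose log2 CPM followed the members most closely across the libraries were found among 10433 genes by Pearson's r, given as a description over 12 libraries that share animals and batches. Group means were not removed, so any change between 0 h and 2 h that a gene shares with a member raises r. For Nfatc1 they were Sdad1 (0.991), Heg1 (0.991) and Fnbp1 (0.990). For Ppp3ca they were Klf2 (0.989), which encodes a transcription factor of quiescent lymphocytes, Maf1 (0.984) and Pitpnm1 (0.982). For Nfatc2 they were Jund (0.954), Mief2 (0.944) and Wdfy2 (0.939), and for Rcan3 they were C2cd2l (0.980), Sipa1l1 (0.967) and Bcl9l (0.964). Rcan1, which passed no test, was closest to Btbd1, at 0.919. Without KO 2 h replicate 1 the first places were Ntmt1 (0.996) for Nfatc1, Peli1 (0.996) for Ppp3ca and Tmc6 (0.969) for Nfatc2, while C2cd2l (0.983) and Btbd1 (0.901) stayed first for Rcan3 and Rcan1.

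The other genes of the pathway are given by list, beside the 10.7% of all genes that rose and 9.06% that fell in WT, the 14.1% and 13% in KO, and all-gene median log2 changes of 0.01 and 0.04. No list was tested as a set. Upstream of calcineurin, 1 of 14 genes of the route from receptor to calcium entry rose and 4 fell in WT, and 1 rose and 7 fell in KO, with medians of -0.43 and -0.42. Without KO 2 h replicate 1, a setting in which 28.9% of all genes passed in WT and 30.8% in KO, 1 rose and 6 fell in WT, and 1 rose and 7 fell in KO. The gene that rose was Orai1, the pore of the store-operated calcium channel, from 25.9 to 77.2 CPM in WT and from 22.7 to 77.8 CPM in KO (log2 1.58 ± 0.22 and 1.77 ± 0.22, adjusted p = 7.47e-04 and 2.81e-04). Stim1, the calcium sensor that opens it, fell from 89.4 to 54.3 CPM in WT and from 86.6 to 43.4 CPM in KO (-0.72 and -0.99). Itpr3, an inositol trisphosphate receptor that releases stored calcium, fell in both genotypes (-1.03 and -1.29). Orai1 and Stim1 thus changed in opposite directions in both genotypes.

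Among the partners of calcineurin, 9 genes for regulatory subunits, activators, anchors, immunophilins and inhibitors were tested. Of these 1 rose and 1 fell in WT, and 2 rose and 1 fell in KO, close to the shares of all genes, with medians of -0.08 and -0.11. With KO 2 h replicate 1 left out, 1 rose and 3 fell in WT, and the KO counts did not move. Ppia, the cyclophilin that binds cyclosporin, rose by 0.68 in WT and 0.81 in KO, and Fkbp1a, the protein that binds tacrolimus, rose by 0.69 in KO. Chp1, a calcineurin B-like protein, fell from 93.4 to 50.0 CPM in WT and from 87.5 to 42.2 CPM in KO. The list for kinases that rephosphorylate NFAT, for its export and for its cytoplasmic retention had 15 tested genes. In WT 0 rose and 3 fell, where 10.7% and 9.06% of all genes did. In KO 1 rose and 5 fell, where 14.1% and 13% of all genes did. The medians were -0.31 in WT and -0.39 in KO. With KO 2 h replicate 1 left out, 1 rose and 7 fell in each genotype. Gsk3b, a kinase that drives NFAT out of the nucleus, fell in both genotypes (-0.70 and -0.77). Lrrk2, a component of the cytoplasmic NFAT retention complex, went from 386 to 141 CPM in WT and from 411 to 108 CPM in KO. The 2 other NFAT-related genes tested, Nfat5 and Nfatc2ip, passed in neither genotype, though Nfat5 rose in KO without KO 2 h replicate 1, and Nfatc4 was too low to test.

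The list of genes known as NFAT targets in lymphocytes held 18 genes and, like the others, was chosen with earlier results of these data known. Il2, Il4, Il10, Csf2 and Tnfsf11 were too low to test, with group means of at most 0.832 CPM. Of the 13 tested, 8 rose and 0 fell in each genotype, with medians of 1.39 and 1.73. The counts without KO 2 h replicate 1 were also 8 and 0. The other 5 (Ifng, Cd40lg, Fasl, Ctla4 and Pdcd1) did not pass, and their log2 values ran from -1.52 for Cd40lg to 0.45 for Ifng in WT and from -0.92 for Ctla4 to 0.50 for Ifng in KO. The chemokine gene Ccl3 rose by 2.22 in WT and 2.50 in KO, from means of 1.78 and 2.36 CPM, and Cd5, a receptor that dampens B cell receptor signals, rose by 1.39 and 1.73. Tnf rose by 0.81 and 1.19. These genes also answer to other factors downstream of the receptor, and NFAT binding was not measured here. None of the genes in these lists passed between KO and WT at either time.

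**Figure D5:**
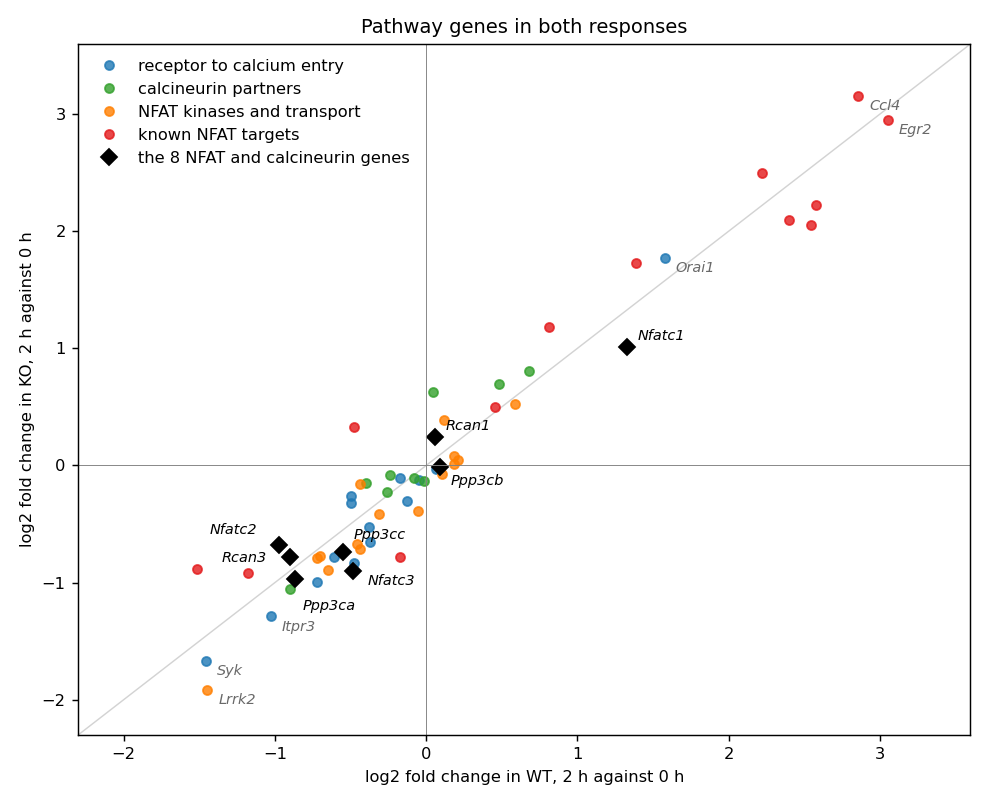
Log2 fold change at 2 h against 0 h in WT (horizontal) and in KO (vertical) for the tested genes of 4 pathway lists (coloured circles) and the 8 NFAT and calcineurin genes (black diamonds), with the line of equal change in grey. Nfatc1 lies at 1.33 and 1.01 with the rising targets, and 5 diamonds (Nfatc2, Nfatc3, Ppp3ca, Ppp3cc and Rcan3) lie in the lower left.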

How the data were processed

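RNA-seq was measured in 12 libraries, 3 in each of 4 groups. The submitters' processing notes name STAR and mm10, and the sources used here give no aligner version, counting tool, strand setting or annotation. The deposited values are the authors' raw counts per gene symbol, in 1 table per library, with no normalization, and all later steps were done here. Genes passing filterByExpr (12242 of 24046) were fitted in 1 model of the 4 groups with edgeR 4.0.16 (R 4.3.3, TMM scaling, quasi-likelihood test, two-sided), and p-values were adjusted by Benjamini-Hochberg over all of them, with calls at an adjusted p under 0.05. CPM are read counts normalised to TMM-scaled library size, and CPM per kilobase divide by the exon bases of GENCODE M21. Intervals are 95% and, like the floor of 3 counts, cover these libraries only. The script was tested on simulated counts that held no batch effect, animal effect or outlying library, so that test does not cover these.

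All 8 members are named. Pathway genes come from lists of known function, and in each list the genes called, or a few of them, are named. Genes of like pattern are the 3 with the highest Pearson's r among genes whose log2 CPM averaged 1 or more. The members and the lists were chosen with earlier results of these data known. Alternatives were DESeq2 1.42.0, other scaling and filters, the batch number or the animal as a block, and leaving out libraries. Each 0 h library shares an identifier with the 2 h library of the same replicate, taken as the same animal, and the deviations of these pairs from their group means correlated between -0.40 and 0.59. Those of KO and WT libraries with the same batch number correlated at 0.54, 0.74 and 0.66 at 0 h. At 2 h these values were 0.67, 0.27 and 0.86. The main model has no block for the batch number. No pair of libraries was a duplicate (chi-square per degree of freedom at least 13.9).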

Additional observations from a re-analysis of the deposited data

How the results depend on the processing

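Of 896 recomputed member values, 838 kept their side of the threshold and either their direction or, if uncalled, a value within 1 SE, 45 lost a call (6 in the WT response and 39 in the KO response), 7 gained one in the WT response, 6 uncalled values changed sign by more than 1 SE, and 0 reversed. In the WT response 4 members passed, 3 to 5 passed when single libraries were left out, and 4 to 6 passed over the other 11 alternatives. The WT fall of Nfatc3 was called in 4 of 23 alternatives, and that of Ppp3cc in 3. In the KO response 6 passed, 1 to 5 passed when single libraries were left out, and 1 to 6 passed over the other 11 alternatives. With the KO groups fitted alone, 1 member passed (Ppp3ca), on fewer libraries. The cause of the other losses was not tested. Over all genes, 2419 passed in the WT response (1278 to 5205 over the alternatives) and 3316 in the KO response (1735 to 5514). Between genotypes 0 members passed under any alternative, while all-gene counts ran from 0 to 5 at 0 h and from 0 to 19 at 2 h, with 19 from DESeq2 and the batch number as a block, an alternative chosen after seeing the data.

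With the batch number as a replicate block, 5 members passed in the WT response and 6 in the KO response. With the animal as a replicate block, 4 and 5 passed, Nfatc1 losing its KO call. Rcan1 rested on 23 to 224 counts per library. The pathway lists were also counted without KO 2 h replicate 1, an alternative chosen after seeing the data.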
